A study of Mus musculus with 5 samples.

Results

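The endoplasmic reticulum (ER) chaperones and the genes of the unfolded protein response were examined in macrophages that had shared their medium with cancer cells. The members were a list of 42 gene symbols, of which *Vimp* and *Selenos* name the same gene, so that the list held 41 genes of the 17058 genes with a count in any library. All 41 genes were listed in the deposited values. Primary bone marrow–derived macrophages (BMDMs) were grown with M-CSF from the marrow of young adult mice. They were cocultured for 48 hours with 4T1 cells, a BALB/c mouse mammary carcinoma line, across a porous membrane. The study's methods name 2 mouse strains as marrow donors, BALB/c among them, and do not say which gave the sequenced cells. In 2 libraries the 4T1 cells were WT, and in 3 libraries they carried an ADAM17 knock-out with the designation 2.8. ADAM17 is a protease that cuts growth factors and receptors free from the cell surface. According to the study's methods the knock-out lines were made with CRISPR/Cas9 from sorted single cells, so that the loss of ADAM17 and other features of that line cannot be told apart. The gene was deleted in the cancer cells, not in the macrophages whose RNA was sequenced, and nothing in the labels says whether the replicates came from separate mice, so the p-values measure the spread between these samples, which may be technical.

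Secreted and membrane proteins enter the ER through a translocation channel, receive sugars, and are folded by chaperones and disulfide isomerases. Chains that fail to fold are passed back to the cytosol and degraded, a route called ER-associated degradation (ERAD). When unfolded chains accumulate, the sensors IRE1α, ATF6, and PERK are released from the chaperone BiP. IRE1α cuts the mRNA of *Xbp1* so that an active factor is made, ATF6 is cleaved into a transcription factor, and PERK slows translation and raises ATF4 and CHOP. ATF6 and XBP1 are known to act on chaperone and ERAD genes. Macrophages secrete enzymes, cytokines, and complement proteins and rely on this machinery.

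Of the 41 genes, 40 entered the test, and 19 of these (47.5%) were lower after *Adam17*-/- coculture than after WT coculture, at an adjusted p of 0.05 or less by edgeR's quasi-likelihood test with Benjamini-Hochberg adjustment. No member was higher (0 of 40), and 21 did not pass. Among all 12576 genes tested, 16.8% were lower and 14.9% were higher. All 40 tested members had a mean of 10 CPM or more (CPM are counts scaled to the library total with edgeR's TMM factors), and of the 8487 genes at that level 22.8% were lower and 14.1% higher. In 26 of the 40 members every *Adam17*-/- library lay below both WT libraries, a pattern found in 29.7% of all genes tested, and in 1 member, *Ppp1r15a*, every *Adam17*-/- library lay above, a pattern found in 28.4%. The median log2 fold change of the members was -0.29, against 0.01 for all genes tested. *Hyou1* was the only member with a log2 fold change of 1 or more in size, a limit that 4.22% of all genes passed. With library size as the scale, the median of all genes moved to 0.16, 13 members were lower and 2 higher, and 1077 genes in all were lower and 3019 higher, against 2114 and 1869 with TMM factors. Another library scaling moves all genes by about the same amount, so that the median of the members relative to that of all genes, -0.30, is nearly fixed by construction. Among the members, the largest changes were in the folding machinery, as the plot of fold changes by role shows.

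**Figure D1:**
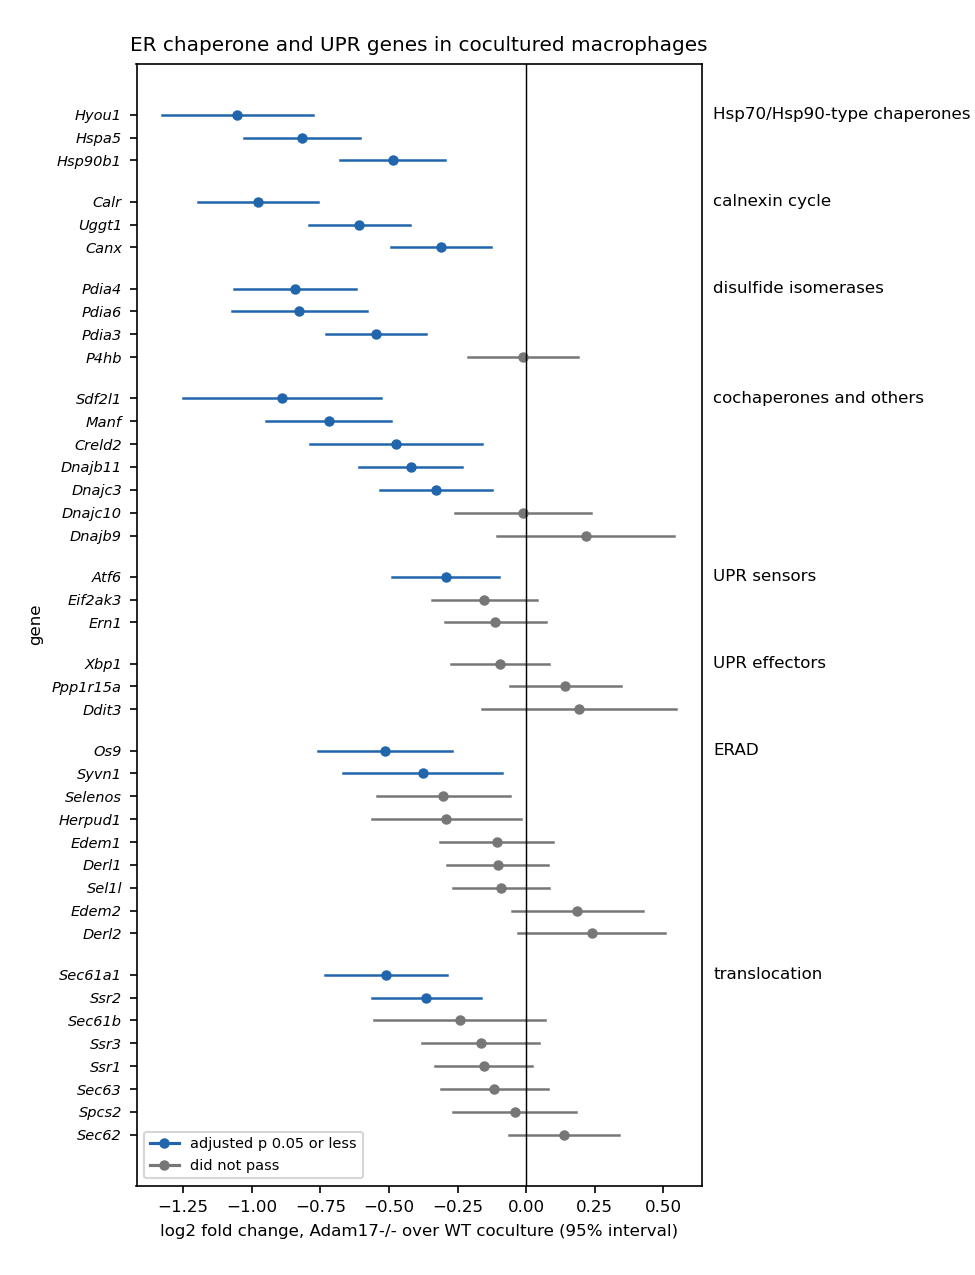
Log2 fold change of the 40 tested members (points) with the 95% interval of edgeR's fit (lines), *Adam17*-/- over WT coculture, grouped by role. Blue members passed an adjusted p of 0.05 and gray members did not, and all 19 that passed lie to the left of 0.

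The 3 members that are Hsp70- and Hsp90-type chaperones of the ER lumen were all lower. *Hspa13*, from the list of other ER genes described further on, had a log2 fold change of 0.08 and did not pass (adjusted p = 0.725 by edgeR). *Hspa5* encodes BiP, the Hsp70 of the ER and the protein that holds the stress sensors inactive. It was read at 460 and 419 CPM after WT coculture and at 225, 264, and 259 CPM after *Adam17*-/- coculture. The *Adam17*-/- libraries lay close to each other and well under both WT libraries. *Hspa5* fell by 43.3%, a log2 fold change of -0.82 ± 0.094 (SE), with an adjusted p of 0.000588. *Hyou1* encodes a large Hsp70-related protein that exchanges nucleotide on BiP. It was measured at 217 and 169 CPM after WT coculture and at 83.8, 104, and 91.4 CPM after *Adam17*-/- coculture. The WT libraries were further apart than the *Adam17*-/- libraries, and the groups did not overlap. *Hyou1* fell by 51.8% (log2 fold change -1.05 ± 0.12, adjusted p = 0.000605 by edgeR), the largest change among the members. *Hsp90b1* encodes GRP94, the Hsp90 of the ER, whose clients include integrins and Toll-like receptors. It was present at 844 and 811 CPM in the WT libraries and at 559, 582, and 629 CPM in the *Adam17*-/- libraries. Every *Adam17*-/- library was again the lower one, with a decrease of smaller size than that of *Hspa5* (log2 fold change -0.49 ± 0.085, adjusted p = 0.00323). The difference between these decreases was not tested.

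All 3 members placed in the calnexin cycle, in which lectins hold glycoproteins while they fold, were lower. *Calr* encodes calreticulin, the soluble lectin of the cycle, and was at 891 and 753 CPM after WT coculture and at 393, 414, and 445 CPM after *Adam17*-/- coculture. Its lowest WT library was above its highest *Adam17*-/- library by a wide margin, and its log2 fold change was -0.98 ± 0.098 (adjusted p = 0.000381 by edgeR). *Uggt1* encodes the glucosyltransferase that returns misfolded glycoproteins to the cycle. Its levels were 258 and 249 CPM in the WT libraries and 156, 175, and 169 CPM in the *Adam17*-/- libraries. The groups did not overlap, and the log2 fold change was -0.61 ± 0.082 (adjusted p = 0.00105). *Canx*, which encodes the membrane-bound lectin calnexin, changed less, with means of 521 ± 38.3 CPM (SD, n = 2) and 421 ± 7.30 CPM (SD, n = 3) and a log2 fold change of -0.31 ± 0.082 (adjusted p = 0.0189). The call for *Canx* was lost without *Adam17*-/- replicate 1, 2, or 3, each with a log2 fold change between -0.30 and -0.28.

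Disulfide bonds are formed and rearranged by the protein disulfide isomerases, and 3 of the 4 members of this class were lower. *Pdia4* was at 175 and 157 CPM in the WT libraries and at 82.9, 95.3, and 100.2 CPM in the *Adam17*-/- libraries. *Pdia6*, whose product also binds BiP and IRE1α, was at 190.1 and 156 CPM and at 88.2, 97.9, and 106 CPM. In both genes every *Adam17*-/- library was below both WT libraries, and the log2 fold changes were -0.84 ± 0.099 for *Pdia4* (adjusted p = 0.000648) and -0.83 ± 0.11 for *Pdia6* (adjusted p = 0.00101). *Pdia3*, the isomerase that works with calnexin and calreticulin, fell by 31.6% (log2 fold change -0.55 ± 0.082, adjusted p = 0.00155). *P4hb* encodes PDI itself, which is also a subunit of collagen prolyl hydroxylase, and did not follow the others. It was measured at 1376 and 1328 CPM after WT coculture and at 1330, 1257, and 1435 CPM after *Adam17*-/- coculture. The groups overlapped, and the log2 fold change was -0.01 with a 95% interval from -0.21 to 0.19 (adjusted p = 0.933). Per length, *P4hb* had the highest level of all members, at a mean of 514 FPKM in the WT libraries, followed by *Calr* at 411 and *Hsp90b1* at 289 FPKM.

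Of the 7 cochaperones and related ER proteins, 5 were lower and 2 did not pass. *Sdf2l1* encodes a partner of BiP and of its cochaperone ERdj3 and was at 24.1 and 17.0 CPM in the WT libraries and at 9.80, 11.5, and 12.0 CPM in the *Adam17*-/- libraries. WT replicate 1 was the highest library, yet WT replicate 2 was also above all *Adam17*-/- libraries. The log2 fold change was -0.89 ± 0.16 (adjusted p = 0.00373 by edgeR). *Manf* encodes a secreted, BiP-binding protein that is released on ER stress. Its levels were 44.6 and 38.6 CPM after WT coculture and 25.7, 23.7, and 26.3 CPM after *Adam17*-/- coculture. The *Adam17*-/- libraries were nearly equal, and the log2 fold change was -0.72 ± 0.10 (adjusted p = 0.00127). *Creld2*, another secreted ER stress protein, had a log2 fold change of -0.47, *Dnajb11*, which encodes ERdj3, of -0.42, and *Dnajc3*, which encodes the cochaperone P58IPK, of -0.33, with adjusted p-values of 0.0293, 0.00557, and 0.0235. The call for *Creld2* was lost without WT replicate 1 (log2 fold change -0.29) and without *Adam17*-/- replicate 1 or 3 (-0.44 and -0.39), and that for *Dnajc3* was lost without any one of the *Adam17*-/- replicates (-0.33 to -0.28). *Dnajc10*, which encodes the reductase ERdj5, had a log2 fold change of -0.01 (95% interval -0.26 to 0.24). *Dnajb9*, which encodes ERdj4, a cochaperone that returns BiP to IRE1α, was at 20.4 and 29.6 CPM in the WT libraries and at 28.5 to 29.3 CPM in the *Adam17*-/- libraries. WT replicate 1 stood below the other libraries, and the log2 fold change of 0.22 did not pass (adjusted p = 0.273). Without WT replicate 2 it was 0.51 and passed, and without WT replicate 1 it was -0.03.

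**Figure D2:**
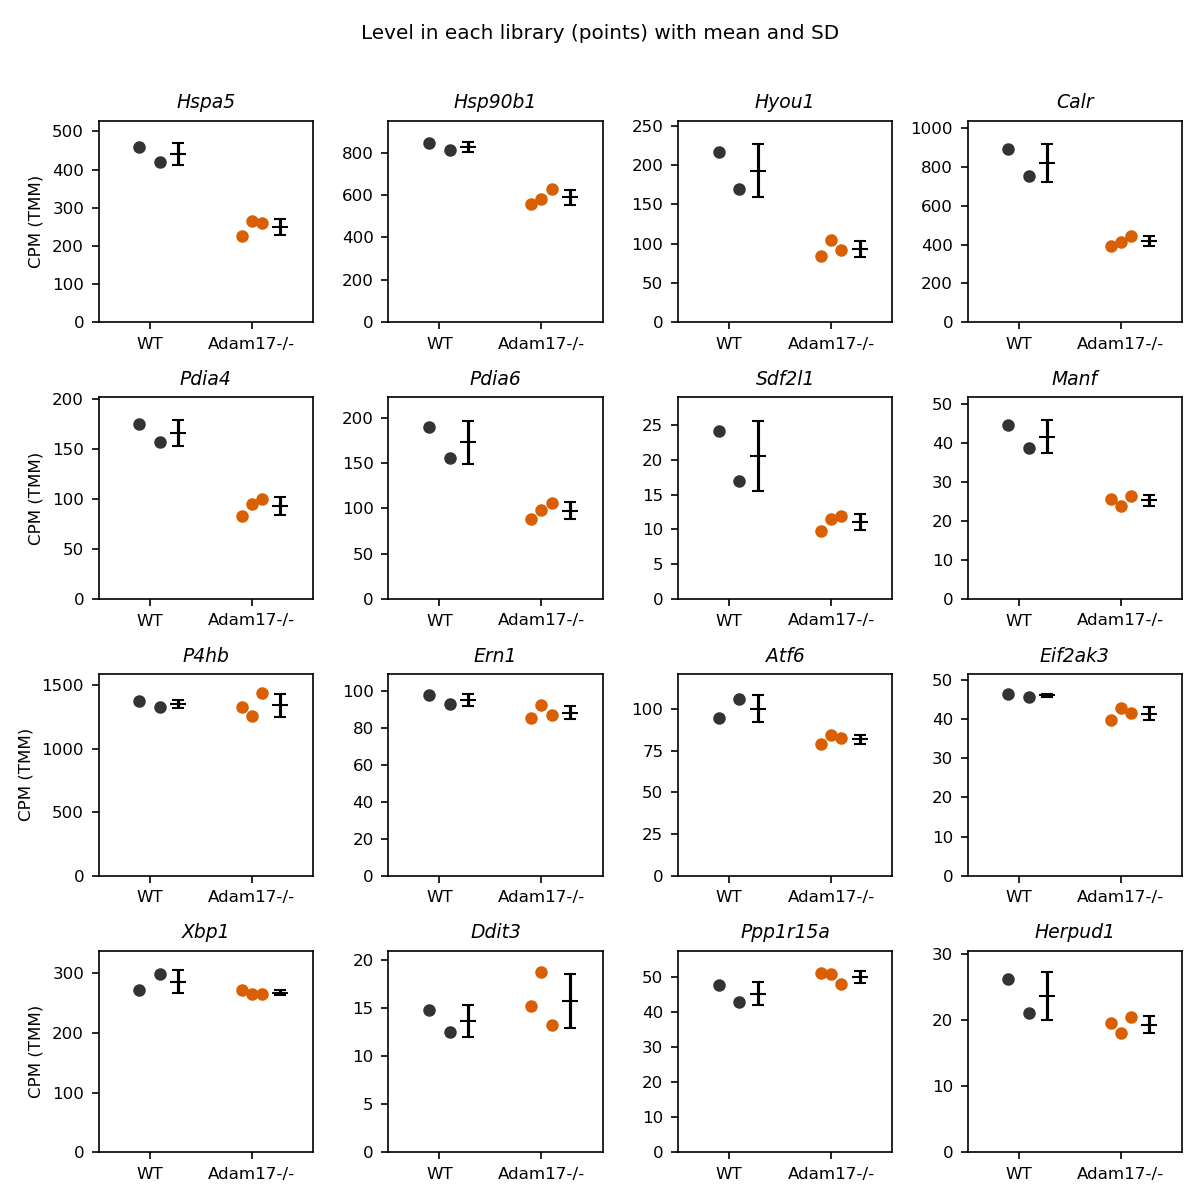
Level in CPM (TMM-scaled, axes from 0) of 16 members in each WT and *Adam17*-/- library (points), with the mean and SD of each group beside them. The chaperones in the first 8 panels separate by group, whereas *P4hb*, *Xbp1*, and *Ddit3* overlap.

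Of the 3 sensors, 1 was lower and 2 did not pass. *Atf6* was at 94.3 and 106 CPM after WT coculture and at 78.8, 84.0, and 82.3 CPM after *Adam17*-/- coculture. Its groups did not overlap, and it fell by 18.4% (log2 fold change -0.29 ± 0.087, adjusted p = 0.0289 by edgeR). That call was lost without any one of the *Adam17*-/- replicates, where the log2 fold change was -0.30 to -0.25, and it held in 6 of the 14 alternative fits. *Ern1*, which encodes IRE1α, was at 97.4 and 92.8 CPM in the WT libraries and at 85.3, 92.0, and 86.7 CPM in the *Adam17*-/- libraries. *Eif2ak3*, which encodes PERK, was at 46.4 and 45.7 CPM and at 39.7, 43.0, and 41.6 CPM. In both genes the *Adam17*-/- libraries were the lower ones by a narrow margin, and neither passed the test. Their log2 fold changes were -0.11 (95% interval -0.30 to 0.07) and -0.15 (95% interval -0.34 to 0.04), with adjusted p-values of 0.317 and 0.196 by edgeR. Over the 14 alternative fits that of *Ern1* ranged from -0.15 to 0.03, the latter with library size as the scale. That of *Eif2ak3* ranged from -0.16 to -0.007.

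None of the 3 effectors passed. *Xbp1* encodes the factor made through IRE1α and was at 272 and 299 CPM in the WT libraries and at 272, 264, and 265 CPM in the *Adam17*-/- libraries. The groups overlapped, and the log2 fold change was -0.10 with a 95% interval from -0.27 to 0.08 (adjusted p = 0.387), and it was -0.16 without WT replicate 1 and -0.02 without WT replicate 2. *Ddit3* encodes CHOP, the factor linked to cell death in prolonged stress, and was at 14.8 and 12.5 CPM and at 15.2, 18.7, and 13.2 CPM. *Ppp1r15a* encodes GADD34, which reverses the block on translation, and was at 47.6 and 42.9 CPM and at 51.1, 50.9, and 47.9 CPM. *Ddit3* overlapped between the groups, whereas the *Ppp1r15a* libraries of the *Adam17*-/- group were just above those of the WT group. The log2 fold changes were 0.19 for *Ddit3* (95% interval -0.16 to 0.55) and 0.14 for *Ppp1r15a* (95% interval -0.06 to 0.34). With 1 library left out, *Ddit3* ranged from 0.07 (without *Adam17*-/- replicate 2, and likewise without WT replicate 2) to 0.32 (without *Adam17*-/- replicate 3, and likewise without WT replicate 1), and *Ppp1r15a* from 0.07 without WT replicate 2 to 0.22 without WT replicate 1. With library size as the scale, *Ppp1r15a* passed at 0.29.

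The activity of IRE1α leaves a mark in the RNA itself, because the enzyme removes 26 bases from *Xbp1*. The stretch is shown since the deposited values distinguish transcripts with and without it. It lies in exon 4 of 5 on the plus strand of chromosome 11 in GRCm38, and the removed bases, at chr11:5524282-5524307, are in capitals in the segment chr11:5524258-5524331.
*Xbp1*: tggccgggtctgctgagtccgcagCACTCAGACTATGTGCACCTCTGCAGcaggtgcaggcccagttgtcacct
The site was located as the pair of IRE1α recognition motifs whose removal lengthens the reading frame, from 267 to 371 codons. The spliced transcript made up 1.04% (95% exact binomial interval 0.782 to 1.36%) and 1.68% (1.36 to 2.06%) of the *Xbp1* expected counts in the WT libraries. In the *Adam17*-/- libraries its share was 3.54% (3.04 to 4.09%), 3.06% (2.55 to 3.64%), and 0.540% (0.356 to 0.785%). *Adam17*-/- replicates 1 and 2 held the highest shares and replicate 3 the lowest of all 5 libraries, so the groups overlapped. The means were 1.36 ± 0.454% (SD, n = 2) and 2.38 ± 1.61% (SD, n = 3), and an exact two-sided permutation test gave p = 0.5, where the smallest p that 2 against 3 libraries allow is 0.1. The transcripts differ only in these bases, so the shares rest on the reads that cross them and on the authors' estimate of how other reads divide, which the intervals for counting error do not cover.

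**Figure D3:**
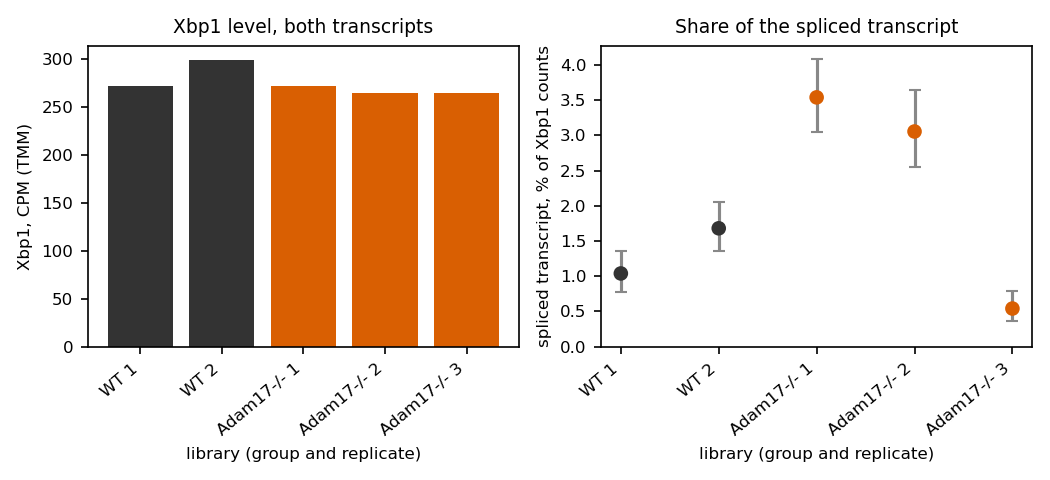
Left, *Xbp1* level in CPM (both transcripts) in each library. Right, share of *Xbp1* expected counts assigned to the spliced transcript, in percent, with 95% exact binomial intervals. Black is WT and orange is *Adam17*-/- coculture, and *Adam17*-/- replicate 3 holds the lowest share while replicates 1 and 2 hold the highest.

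Of the 10 members of the ERAD route, 9 were tested, and 2 of these were lower. *Os9* encodes a lectin that delivers misfolded glycoproteins to the ubiquitin ligase HRD1 and was at 530.3 and 411 CPM in the WT libraries and at 315, 334, and 340.4 CPM in the *Adam17*-/- libraries. The groups did not overlap, and the log2 fold change was -0.52 ± 0.11 (adjusted p = 0.00743 by edgeR). Without WT replicate 1 it was -0.32 and still passed. *Syvn1* encodes HRD1 itself and was at 167 and 118 CPM after WT coculture and at 107, 112, and 110.0 CPM after *Adam17*-/- coculture. Its difference came mainly from WT replicate 1. The log2 fold change was -0.38 (adjusted p = 0.0493), and without WT replicate 1 it was -0.10 and did not pass, and without WT replicate 2 it was -0.61. *Herpud1* encodes a membrane protein that gathers the HRD1 complex and was at 26.2 and 21.1 CPM and at 19.5, 18.0, and 20.4 CPM. Every *Adam17*-/- library was below both WT libraries, but its log2 fold change of -0.29 did not pass (adjusted p = 0.0929). Without WT replicate 2 it was -0.44 and passed, and without WT replicate 1 it was -0.13. *Selenos*, a selenoprotein of the same complex, was at -0.30 (adjusted p = 0.0577) and passed at -0.36 without WT replicate 1. The adaptor *Sel1l*, the channel gene *Derl1*, and the mannosidase-like *Edem1* were between -0.11 and -0.09, and *Edem2* and *Derl2* were at 0.19 and 0.24, with none of these passing. Over the 14 alternative fits *Sel1l* ranged from -0.11 to 0.06, *Derl1* from -0.13 to 0.04, and *Edem1* from -0.19 to 0.04. Without WT replicate 1, *Edem2* was at 0.37 and passed and *Derl2* was at 0.05, and without WT replicate 2, *Derl2* was at 0.45 and passed and *Edem2* was at 0.03. *Derl3* was at 0.0541 to 0.371 CPM, near the floor of 3 counts (0.157 to 0.197 CPM), and was not tested.

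Among the 8 members that move chains into the ER and trim them, 2 were lower. *Sec61a1* encodes the pore of the translocation channel and fell by 29.8% between means of 146 ± 21.4 CPM (SD, n = 2) after WT and 103 ± 3.09 CPM (SD, n = 3) after *Adam17*-/- coculture, with a log2 fold change of -0.51 ± 0.099 (adjusted p = 0.00513 by edgeR). *Ssr2*, a subunit of the translocon-associated TRAP complex, fell by 22.3% between means of 47.6 ± 0.263 CPM (SD, n = 2) and 37.0 ± 2.08 CPM (SD, n = 3), with a log2 fold change of -0.36 (adjusted p = 0.0137), a call that was lost without *Adam17*-/- replicate 1 or 2, with log2 fold changes of -0.30 and -0.35. The remaining channel subunit *Sec61b* was at -0.24, the TRAP subunits *Ssr1* and *Ssr3* at -0.16 and -0.17, *Sec63* at -0.12, the signal peptidase subunit *Spcs2* at -0.04, and *Sec62* at 0.14, all log2 fold changes that did not pass. Over the 14 alternative fits *Sec63* ranged from -0.18 to 0.03 and *Spcs2* from -0.16 to 0.11. Without WT replicate 1, *Ssr1* passed at -0.21 and *Ssr3* at -0.29, and without WT replicate 2, *Sec61b* passed at -0.41 and *Sec62* at 0.23.

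Calls of 13 of the 19 lower members held in each of 14 alternative fits, namely *Calr*, *Dnajb11*, *Hsp90b1*, *Hspa5*, *Hyou1*, *Manf*, *Os9*, *Pdia3*, *Pdia4*, *Pdia6*, *Sdf2l1*, *Sec61a1*, and *Uggt1*, and all 19 kept a negative sign. The calls of *Atf6*, *Canx*, *Creld2*, *Dnajc3*, *Ssr2*, and *Syvn1* were lost with library size as the scale, at log2 fold changes of -0.15, -0.16, -0.33, -0.18, -0.22, and -0.23, as well as in both FPKM fits and with the replicate number as a block. *Syvn1* lost its call in 10 of the 14 fits, among them those without each *Adam17*-/- replicate (-0.37 to -0.34). The direction of 10 of the 21 members that did not pass changed in at least 1 fit, and 10 of the 21 passed in at least 1 fit, *Derl2*, *Dnajb9*, *Edem2*, *Ppp1r15a*, and *Sec62* as higher and *Herpud1*, *Sec61b*, *Selenos*, *Ssr1*, and *Ssr3* as lower. The 19 lower members had a median level of 42.0 FPKM in the WT libraries (range 12.7 to 411) and the 21 others 22.1 FPKM (range 9.77 to 514). WT replicate 1 was above WT replicate 2 in 14 of the 19 lower members and in 9 of the 21 others, and *Adam17*-/- replicate 1 was the lowest *Adam17*-/- library in 15 and in 8.

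The promoters of the members were searched for known elements of the ER stress response. The ER stress response element (ERSE), which ATF6 binds together with NF-Y, consists of CCAAT, 9 bases of any kind, and CCACG. Both strands of the 250 bases before each RefSeq start in GRCm38.p6 were searched, and 35 of the 41 members had an entry in the promoter table. *Hyou1*, *Manf*, *Sec61a1*, *Ssr2*, *Atf6*, and *Derl1*, which the RefSeq annotation places on the genome, were not in the promoter table used here. An ERSE was found in 9 of the 35 members (25.7%), in 35 of the 27025 genes with an entry (0.130%), and in 0.113% of 32851 promoters. Among the 78 other ER genes with an entry, a list described further on in which 29 of 98 genes were lower, 1 held it, *Ero1b*, which did not pass the test. Of the 14 lower members with an entry, 8 held an ERSE, namely *Calr*, *Canx*, *Creld2*, *Dnajc3*, *Hsp90b1*, *Hspa5*, *Pdia6*, and *Syvn1*, and of the 21 other members 1 did, *Derl3*. *Canx*, *Creld2*, *Dnajc3*, and *Syvn1* are among the members whose call was lost in 7 to 10 of the 14 fits, and counted over the calls that held in all 14 fits the split was 4 of 10 lower members against 5 of the 25 others. *Hsp90b1* held 2 copies. Pathway lists of this kind draw on genes known to respond to ER stress, so the share of members with the element is a description. Segments around the element are printed for 4 lower members that differ in strand and distance, with its bases in capitals and each segment read 5′ to 3′ in the direction of its gene.
*Hspa5*, chr2:34772015-34772053, plus strand: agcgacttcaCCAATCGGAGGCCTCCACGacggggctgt
*Calr*, chr8:84847065-84847103, minus strand: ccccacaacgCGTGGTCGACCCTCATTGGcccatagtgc
*Pdia6*, chr12:17266481-17266519, plus strand: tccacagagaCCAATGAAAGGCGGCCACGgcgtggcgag
*Syvn1*, chr19:6046522-6046560, plus strand: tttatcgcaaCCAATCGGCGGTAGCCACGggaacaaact
The element begins 65 bases before the start of *Hspa5*, 162 before that of *Calr*, 98 before that of *Pdia6*, and 44 before that of *Syvn1*. In *Calr* it reads as its reverse complement. *Hspa5*, *Calr*, and *Pdia6* are among the 8 members with the largest decreases, but *Pdia4*, *Sdf2l1*, and *Uggt1*, also among these, held no such letters in the window. The related element ERSE-II, made of ATTGG, 1 base, and CCACG, was found in *Herpud1* alone among the members and in 10 of 27025 genes, and it is shown because *Herpud1* did not pass the test.
*Herpud1*, chr8:94386367-94386397, plus strand: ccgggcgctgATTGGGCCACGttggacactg
The XBP1 element TGACGTGG was in 0 of the 35 members, in 4 of 78 other ER genes with an entry (*Txndc11*, *Txndc5*, *Ube2j1*, and *Vcp*), in 0.603% of all genes with an entry, and in 0.563% of all promoters. Binding of ATF6 or XBP1 was not tested, and these counts do not tell the factors apart.

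Other genes of the ER were taken from a list of 98, all of which were tested. Of these, 29 (29.6%) were lower, 5 were higher, and 64 did not pass, with a median log2 fold change of -0.14. Among all genes tested, 16.8% were lower and 14.9% higher, and among those at a mean of 10 CPM or more 22.8% and 14.1%. With library size as the scale, 11 of the 98 were lower and 8 higher, with a median of 0.0026, where 8.56% of all genes were lower, 3019 of 12576 were higher, and their median was 0.16. Without *Adam17*-/- replicate 1, 2, or 3 the lower genes of the list numbered 10, 16, and 13, where 7.43%, 9.34%, and 9.92% of all genes were lower. The largest share was among the genes for N-glycosylation, where 10 of 17 were lower and 0 higher. In the other classes, 8 of 21 ERAD genes, 4 of 17 folding genes, and 3 of 12 oxidoreductases were lower, with 1, 0, and 1 higher. Of the translocation genes 2 of 17 were lower and 1 higher, and of the signaling genes 2 of 14 were lower and 2 higher. The folding and oxidoreductase classes had median log2 fold changes of -0.06 and -0.10. *Rpn1*, *Rpn2*, and *Ddost*, subunits of the oligosaccharyltransferase that attaches the sugar, had log2 fold changes of -0.82, -0.66, and -0.64, and *Mogs*, the glucosidase that first trims it, of -0.67 (adjusted p = 0.000896, 0.000924, 0.00284, and 0.00145 by edgeR). *Vcp*, the ATPase that pulls ERAD substrates from the membrane, was lower at -0.61 (adjusted p = 0.00153), and the disulfide isomerase *Txndc5* at -0.60 (adjusted p = 0.00321). These 6 calls held in each of the 14 alternative fits. Of the genes around ATF6, *Atf6b*, its close relative, was lower at -0.53 (adjusted p = 0.00702 by edgeR), and at -0.34 without WT replicate 1. *Mbtps1*, which encodes the site-1 protease that cleaves ATF6, was lower at -0.30 (adjusted p = 0.0314), and at -0.19 without WT replicate 1. The call for *Mbtps1* was lost in 9 of 14 fits, among them those without each *Adam17*-/- replicate. *Mbtps2*, which encodes the site-2 protease, did not pass (-0.05, adjusted p = 0.796 by edgeR), and its groups overlapped.

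**Figure D4:**
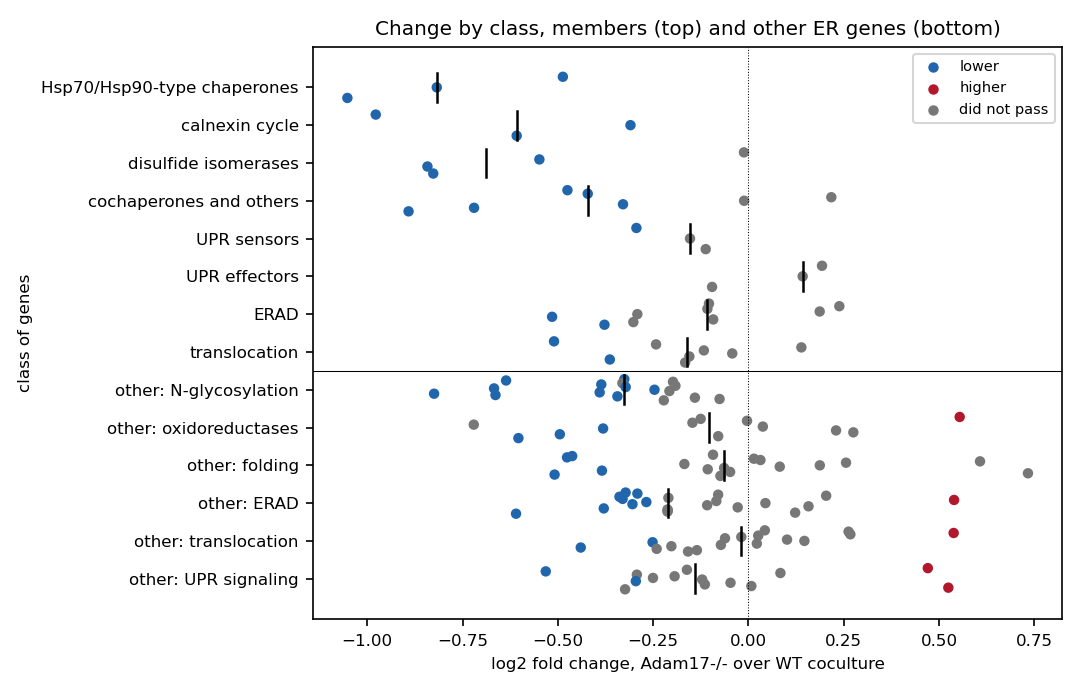
Log2 fold change, *Adam17*-/- over WT coculture, of each tested gene (points) by class, members above the line and other ER genes below it, with the median of each class as a bar. Blue genes were lower, red genes higher, and gray genes did not pass, and the chaperone, calnexin cycle, disulfide isomerase, and N-glycosylation classes have medians between -0.82 and -0.33.

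The 5 higher genes of the list were *Ero1a*, *Fam8a1*, *Sec61a2*, *Trib3*, and *Atf3*. *Ero1a* encodes the oxidase that recharges PDI, a gene also known to respond to low oxygen. It was at 345 and 487 CPM in the WT libraries and at 638, 555, and 638 CPM in the *Adam17*-/- libraries. The groups did not overlap, although WT replicate 2 was nearer to the *Adam17*-/- libraries, and the log2 fold change was 0.55 ± 0.14 (adjusted p = 0.0152 by edgeR). The call was lost without *Adam17*-/- replicate 1 or 3, with log2 fold changes of 0.54 and 0.53, and without WT replicate 1 the log2 fold change was 0.33 and still passed. *Atf3*, a stress-induced factor downstream of ATF4, rose at 0.47 (adjusted p = 0.00908), and *Trib3*, a target of ATF4 and CHOP, at 0.52 (adjusted p = 0.0482), the latter at only 3.79 to 6.46 CPM and with its call lost when any library was left out, at log2 fold changes of 0.43 to 0.62. *Sec61a2*, the second gene for the channel pore, rose at 0.54 (adjusted p = 0.00513), whereas *Sec61a1* fell, and it was the less abundant at 24.4 to 40.3 CPM. *Fam8a1*, a partner of HRD1, also rose at 0.54 (adjusted p = 0.0139), and its call was lost without *Adam17*-/- replicate 1 or 3, with log2 fold changes of 0.50 and 0.53. *Atf4* at -0.16 and the phosphatase subunit *Ppp1r15b* at -0.11 did not pass (adjusted p = 0.209 and 0.274), and *Atf4* passed at -0.27 without WT replicate 2.

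The libraries held 14658694 to 20788373 counts. Between WT replicates the counts differed more than between any pair of *Adam17*-/- replicates (chi-square per degree of freedom 25.7 against 5.22 to 6.32). Markers of the macrophage were high in all libraries. The 10 epithelial markers summed to 11.0 to 14.0 CPM, nearly all of it from *Cdh1*, which was at 10.6 to 13.2 CPM in every library with overlapping groups (log2 fold change 0.14, adjusted p = 0.422 by edgeR), and *Epcam* was at 0 to 0.0541 CPM. The 8 macrophage markers summed to 27659 to 28416 CPM after WT coculture and to 17945 to 19906 CPM after *Adam17*-/- coculture, with 6 of the 8 lower, *Adgre1* among them (log2 fold change -0.66, adjusted p = 0.00105 by edgeR), and *Csf1r* just short of the threshold (-0.29, adjusted p = 0.052). The 7 markers of neutrophil precursors summed to 84.2 to 112 CPM and to 293 to 447 CPM, with 5 higher. *Mpo*, the enzyme that defines them, was at 6.76 to 13.5 CPM and at 14.4 to 63.2 CPM (log2 fold change 1.64, adjusted p = 0.0581). The 5 megakaryocyte markers summed to 48.6 to 54.1 CPM and to 79.7 to 133 CPM, all 5 higher, and the 6 proliferation markers to 131 to 140.1 CPM and to 174 to 188 CPM, 4 of them higher. The 7 plasma and B cell markers, from cells rich in ER, summed to 30.4 to 38.8 CPM and to 47.5 to 54.1 CPM. Most of that sum was *Sdc1*, the only call among them, at 34.6 and 28.4 CPM after WT coculture and at 44.3, 49.2, and 44.4 CPM after *Adam17*-/- coculture (log2 fold change 0.54, adjusted p = 0.00612). *Cd79a* and *Cd79b* did not pass, and the other 4 were too low to be tested, with *Mzb1* at 0 to 0.105 CPM and *Tnfrsf17* at 0 in every library. These levels moved with the decrease of the chaperones, and their part in it was not tested. In bulk RNA, fewer cells of a type and less RNA per cell cannot be told apart. *Adam17* was at 198 and 199.6 CPM in the macrophages after WT coculture and at 152, 164, and 161 CPM after *Adam17*-/- coculture (log2 fold change -0.32, adjusted p = 0.0129), a value that does not check the labels, since the knock-out was in the cancer cells.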

How the data were processed

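RNA of 5 BMDM samples was sequenced on a BGISEQ-500 instrument by the study's methods, which name HISAT for alignment to GRCm38 and Bowtie2 and DESeq2 for later steps. The submitters' processing notes name Bowtie2, RSEM, Bowtie, and DESeq2, with build mm10 and no versions. For every transcript, the values the authors deposited are an expected count, not normalized, and an FPKM, scaled to length and depth. The treatment of reads on overlapping or antisense genes is not given in the sources used here. Transcripts without an entry were taken as 0, and a listed FPKM was 0.01 or more.

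Expected counts were summed per Entrez gene and rounded. The sums of *Dnajb9* and *Derl2* were up to 0.30 and 0.14 from a whole number and are uncertain where reads are shared with other genes. The sums of all other members were within 0.05 of a whole number. Libraries held 14658694 to 20788373 counts, and 3 counts correspond to 0.157 to 0.197 CPM. edgeR 4.0.16 in R 4.3.3 was run on all genes with TMM factors (0.920 to 1.05), filterByExpr, glmQLFit, and glmQLFTest, WT against *Adam17*-/-, without covariates. Calls needed an adjusted p of 0.05 or less. SE is the log2 fold change divided by the root of F. The share of spliced *Xbp1* was compared by an exact permutation test. Alternatives used DESeq2 1.42.0, limma 3.58.1, other scalings and filters, the replicate number as a block, other thresholds, and each library left out. On simulated data with the real means and library sizes (12439 genes), edgeR called 92 of 100 genes changed 2-fold, 99 of 100 changed 4-fold, and 12 unchanged genes. The simulation gave all genes the same dispersion and changed only 200 genes. Changes of less than 2-fold, the size seen in all members but *Hyou1*, were not simulated. Promoters came from RefSeq (GRCm38.p6), the *Xbp1* site from the GENCODE transcripts and annotation of GRCm38. Python 3.11.15, pandas 2.3.3, scipy 1.17.1, and matplotlib 3.10.9 were used.

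Every member is named. Values per library were given for *Hspa5*, *Hsp90b1*, the sensors, *Xbp1*, *Ddit3*, *Ppp1r15a*, *Herpud1*, and the 8 members with the largest change among those that passed, and *P4hb*, *Dnajb9*, *Os9*, and *Syvn1* were added after their values were seen. Of the other ER genes, up to 6 in each direction with the largest change among those that passed were named, with *Atf4*, *Atf6b*, *Mbtps1*, *Ppp1r15b*, and *Ero1a*. *Hspa13* and *Mbtps2* were added after their values were seen. The members, the lists, and the tests were chosen with earlier results of these data known. The comparison with genes at 10 CPM or more was chosen after seeing the data.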

Additional observations from a re-analysis of the deposited data

How the results depend on the processing

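The number of lower members was 19 with TMM factors, median-ratio factors, DESeq2, and no filter on low counts, 17 with upper quartile factors, 18 with at least 10 counts in every library, and 13 with library size only, with either limma fit of log2 FPKM, and with the replicate number as a block. With 1 library left out it was 13 to 21. Lower genes among all genes also became fewer in several of these fits, at 1077 with library size only, 1016 and 1011 in the FPKM fits, 1126 under the block, and 935 to 2912 with 1 library left out, against 2114. A limit of 1 on the size of the log2 fold change left 1 member, and an adjusted p under 0.001 with a limit of 0.25 left 4. Higher members numbered 2 with library size only and with either FPKM fit, and 0 to 3 with 1 library left out. Lower genes among the other ER genes, 29 in all, numbered 11 with library size only, 10 and 9 in the limma fits of log2 FPKM with pseudocounts of 0.1 and 1, and 10 to 35 with 1 library left out, and 0 and 2 passed at the stricter thresholds. Higher genes among them, 5 in all, numbered 8, 9, and 9 under those 3 scales, 2 to 11 with 1 library left out, and 0 at either stricter threshold. Under the replicate block the other ER genes had 3 higher and 13 lower calls. The replicate numbers were not treated as pairs. The deviations of same-numbered libraries correlated at -0.124 and -0.0504, values that are not independent because the deviations of the 2 WT libraries mirror each other, and the block leaves 1 residual degree of freedom. The cause of these changes was not tested.

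Among the members and named ER genes, the sign of the log2 fold change turned only for genes that had not passed. Under library size alone and the FPKM fits with pseudocounts of 0.1 and 1, respectively, it was 0.035, 0.034, and 0.033 for *Ern1*, 0.050, 0.053, and 0.053 for *Xbp1*, 0.037, 0.039, and 0.038 for *Edem1*, 0.054, 0.057, and 0.056 for *Sel1l*, 0.042, 0.042, and 0.041 for *Derl1*, 0.028, 0.030, and 0.028 for *Sec63*, 0.10, 0.11, and 0.10 for *Spcs2*, 0.14, 0.13, and 0.13 for *P4hb*, 0.13, 0.14, and 0.14 for *Dnajc10*, and 0.032, 0.032, and 0.031 for *Ppp1r15b*. For *Atf4* it was 0.049 in both FPKM fits. Upper quartile factors gave 0.046 for *P4hb*, 0.046 for *Dnajc10*, and 0.014 for *Spcs2*, and the stricter filter on counts gave 0.0018 for *P4hb* and 0.0023 for *Dnajc10*. With 1 library left out, the values ranged from -0.046 to 0.049 for *P4hb*, from -0.028 to 0.51 for *Dnajb9*, from -0.17 to 0.17 for *Dnajc10*, and from -0.16 to 0.086 for *Spcs2*. The difference in spliced *Xbp1* was 1.02 percentage points, 1.03 as a share of FPKM, 1.94 within replicate numbers (replicate block), and 0.439 to 1.94 with 1 library left out. With 2 against 3 libraries, its exact test cannot pass 0.05. *Derl3* was too low to be tested.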
